A study of Mus musculus with 8 samples.

Results

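Messenger RNAs of 8 genes of neutrophil granules and cytosol were followed in RNA from polysomes of the mouse main olfactory epithelium: S100a8, S100a9, Ngp, Camp, Stfa1, Stfa2, Lyz2 and Ltf. They were taken by symbol from a deposited expression table of 21765 genes. All 8 were among the 16097 genes with a mean of at least 1 transcript per 1000000 (TPM) over the 8 libraries, which were the genes tested. Lysates of the tissue, which had been dissected into 100 µg/mL cycloheximide to hold ribosomes on their messages, were spun through sucrose gradients. Fractions 27 to 34 of about 42, the lighter polysomes, were pooled as early polysomes, and the denser fractions 35 to 42 as late polysomes. Wild-type mice (WT) were Mex3a flox/flox or Mex3a flox/+ and had no Cre, while in the conditional knockout (cKO) Cre was present and the genotype was Mex3a flox/flox. The Cre line is not reported here. Mex3a encodes an RNA-binding protein, and the 2 genotypes were compared in both fractions. A general text of the series speaks of sorted cells and of tetO transgenes, which the labels of these 8 libraries do not name. Genotype and fraction gave 4 groups of 2 libraries, from 4 lysates, each of which gave 1 early and 1 late library. The labels give neither the animals behind a lysate nor their age, so p-values measure only the spread between these libraries.

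Neutrophils store antimicrobial proteins in granules that are filled in sequence while the cells mature in bone marrow. Camp, Ngp and Ltf are made mainly at the stage of the specific granules, Lyz2 over a longer stretch of maturation, and S100a8 and S100a9 fill the cytosol as a pair, calprotectin. Stefins are small cytosolic inhibitors of cathepsins, and mice have a cluster of recently duplicated stefin A genes that mature neutrophils express. Several of the genes are made outside neutrophils too. Lyz2 is a gene of macrophages and monocytes, and Ltf is secreted by glands of mucosal tissues, the nose among them. On a gradient, the number of ribosomes on a message is bounded by the length of its coding sequence, so short messages sediment with lighter polysomes.

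The genes lie at 4 places in the genome (GRCm38, GENCODE M21, no exon of another gene overlapping theirs). S100a8 (chromosome 3, 90668978 to 90670035, plus strand, 3 exons) and S100a9 (chromosome 3, 90692632 to 90695721, minus strand, 3 exons) are neighbours in the S100 cluster. Chromosome 9 holds Camp (109847379 to 109849617, minus strand, 4 exons), Ngp (110419747 to 110423012, plus strand, 4 exons) and Ltf (111019271 to 111042767, plus strand, 17 exons). Stfa1 (36276951 to 36285373, plus strand, 3 exons) and Stfa2 (36403992 to 36408457, minus strand, 3 exons) are part of the stefin cluster of chromosome 16, and Lyz2 (chromosome 10, 117277331 to 117282321, minus strand, 4 exons) lies beside its copy Lyz1. Coding sequences were short in 7 of the 8: S100a8 encodes 89 residues, Stfa2 103, S100a9 113, Stfa1 128, Lyz2 148, Ngp 167 and Camp 172. Ltf encodes 707 residues in its longest annotated form.

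Since the readout is ribosome loading, the bases around each start codon are shown, from 10 before the ATG to 4 after it, with the ATG in capitals, as read from the GENCODE M21 transcripts.
S100a8: tttcgtgacaATGccgt
S100a9: gagcaagaagATGgcca
Ngp: gtcagagacaATGgcag
Camp: cttgggaaccATGcagt
Ltf: gaccacagacATGaggc
Lyz2: tccagtcaccATGaaga
Stfa1: acgcatcaagATGagtc
Stfa2: ctgcccagcaATGactg
A purine, A or G, stood 3 bases before the ATG in 8 of 8, against 85.0% of the 14135 tested genes with such a window. A G directly after the ATG together with that purine was found in Ngp and S100a9, 2 of 8, against 43.7% of those genes. Ltf, whose message moved the other way on the gradient, shared the purine with the rest.

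Copies of the stefins limit what their values can mean, and the last 90 coding bases before the stop codon show how near they are. In the lines of BC100530 and BC117090, capitals mark bases unlike Stfa1, and in those of Stfa2l1 and Stfa3 bases unlike Stfa2.
Stfa1: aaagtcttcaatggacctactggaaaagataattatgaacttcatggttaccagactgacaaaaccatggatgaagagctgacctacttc
BC100530: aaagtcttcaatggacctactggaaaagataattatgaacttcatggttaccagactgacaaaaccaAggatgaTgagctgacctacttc
BC117090: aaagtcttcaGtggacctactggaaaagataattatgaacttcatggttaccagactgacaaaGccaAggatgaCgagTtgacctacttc
Stfa2: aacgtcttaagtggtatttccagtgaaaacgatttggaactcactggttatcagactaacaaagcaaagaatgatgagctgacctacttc
Stfa2l1: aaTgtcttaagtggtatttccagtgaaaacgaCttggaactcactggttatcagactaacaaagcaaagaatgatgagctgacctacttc
Stfa3: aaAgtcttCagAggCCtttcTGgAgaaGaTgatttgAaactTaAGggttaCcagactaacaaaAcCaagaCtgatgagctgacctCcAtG
In this stretch Stfa1 and BC100530 differed at 2 bases and Stfa2 and Stfa2l1 at 2, whereas Stfa1 and Stfa2 differed at 26. Over the aligned coding sequence, Stfa1 was 97.9% identical to BC100530 and 79.0% to Stfa2, and Stfa2 was 96.4% identical to Stfa2l1. Of the 50-base words of the Stfa1 transcripts, 25.4% occur in another annotated gene, as do 15.9% for Stfa2 and 15.4% for Lyz2, which shares them with Lyz1. S100a8, S100a9, Ngp, Camp and Ltf share none. How reads that fit several genes were counted is not given in the sources used here, so the values of Stfa1, Stfa2 and Lyz2 may hold reads of their copies. Lyz1 was listed at a mean of 0.573 TPM.

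Whole reads inferred from the TPM steps summed to between 7776792 and 12771079 per library, fewest in cKO late replicate 2. The targeted gene, Mex3a, was at 93.2 to 116 TPM in the 4 WT libraries and 11.1 to 19.8 TPM in the 4 cKO libraries. In the library titled WT early replicate 2, the genotype tag reads cKO and so conflicts with the title. Its Mex3a level was 116 TPM, the highest of the 8, and it was kept as WT, with results that rest on it given also without it. Markers of the labelled tissue were abundant: 8 genes of mature olfactory neurons summed to 7082 to 12285 TPM per library, and 8 of sustentacular cells and glands to 9870 to 24538 TPM.

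Per length, Ltf was the most abundant of the 8, with a mean of 283 TPM over the 8 libraries (89.3 to 585), followed by Lyz2 with 93.2 (63.3 to 127) and S100a9 with 75.1 (23.4 to 148). Next came S100a8 with 36.8 TPM (15.1 to 63.7), Ngp with 32.7 (16.9 to 50.4) and Camp with 14.9 (5.13 to 27.0). The stefins were lowest, Stfa1 at 10.5 TPM (2.66 to 29.4) and Stfa2 at 7.06 (0 to 15.6), on 157 and 110 reads over all libraries. S100a9 exceeded S100a8, and Ngp exceeded Camp, in 8 of 8 libraries. The other neighbours in this order changed places between libraries: Ltf exceeded Lyz2 in 7 of 8, Lyz2 exceeded S100a9 in 6, S100a8 exceeded Ngp in 4, all of them early, Camp exceeded Stfa1 in 6 and Stfa1 exceeded Stfa2 in 6.

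Between the fractions, 7 of the 8 genes fell from early to late polysomes and Ltf rose. Averaged over the genotypes, all 8 passed the threshold (limma on log2 of scaled TPM + 1, adjusted p under 0.05). Of all genes tested, 34.6% passed in the lower direction and 34.3% in the higher, so passing was common. The median of the 8 was -1.58 on the log2 scale, against -0.011 over all 16097 genes. On scaled TPM, early and late libraries of both genotypes together did not overlap for any of the 8 but Lyz2. On TPM as deposited, those of Ngp overlapped too. For comparison, 30.9% of genes were lower without overlap and 31.5% higher.

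Calprotectin messages were among those most skewed to light polysomes. S100a8, which encodes the smaller subunit, stood at 44.2 and 63.7 TPM in the WT early libraries, against 16.9 and 19.9 in the late ones. In cKO it stood at 54.2 and 61.6 TPM early and 18.8 and 15.1 late. Every early library was thus above every late one, by a log2 change of -1.71 (SE 0.14, limma adjusted p = 2.62e-05). S100a9, the larger subunit, was at 77.1 and 133 TPM in early WT polysomes and 37.0 and 42.4 in late ones. In cKO the early values were 106 and 148 TPM and the late values 32.8 and 23.4. Again the fractions were apart, with a log2 change of -1.85 (SE 0.20, limma adjusted p = 7.40e-05), and 46 of the 16097 genes fell further. The reads behind these values ranged from 16 to 120 for S100a8 and from 33 to 341 for S100a9. The pair kept a narrow ratio: S100a9 was 1.54 to 2.41 times S100a8 in the 8 libraries, fractions and genotypes included.

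**Figure D1:**
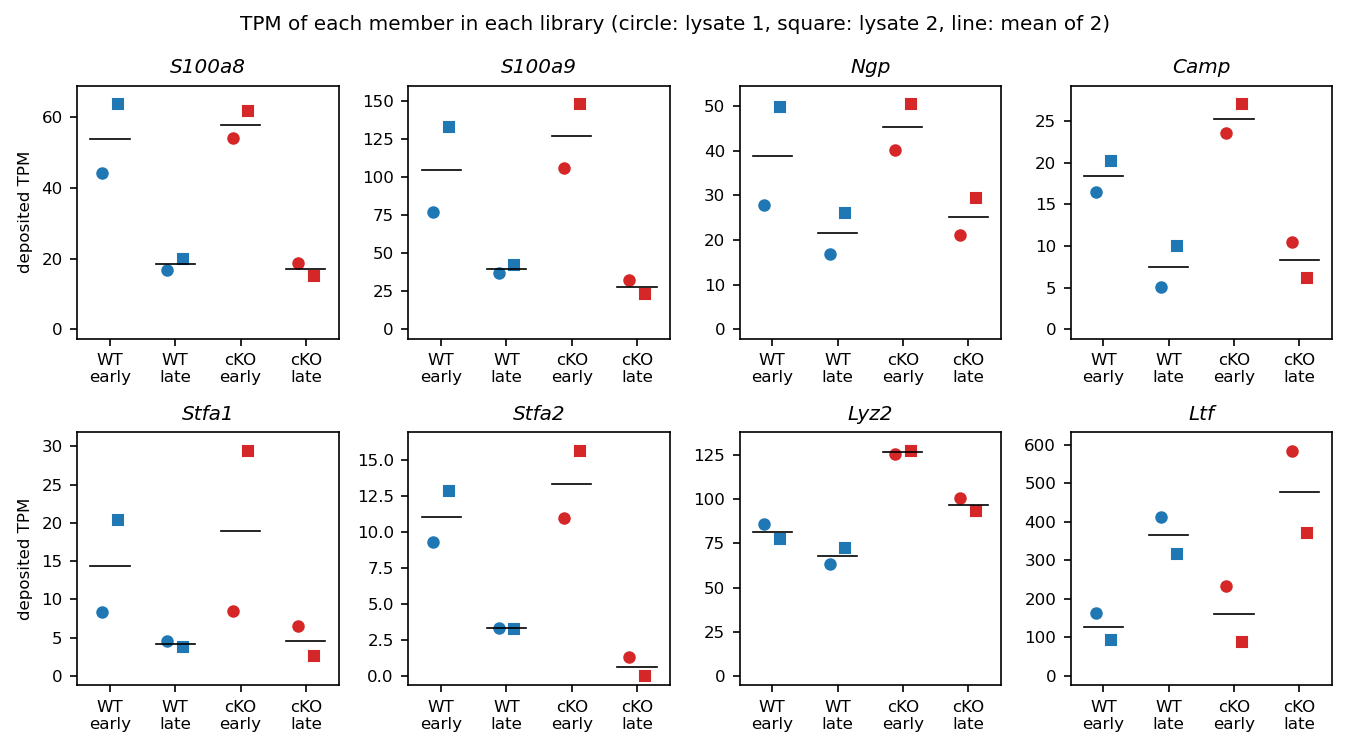
Deposited TPM (linear vertical axis, each panel on its own scale) of the 8 genes in each library, 1 panel per gene; the horizontal axis gives the 4 groups, each point is 1 library (circle for lysate 1, square for lysate 2), and lines are means of 2. Early points lie above late points for every gene but Ltf, which rises, and Ngp and Lyz2, whose fractions overlap across genotypes.

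The granule proteins divided by direction. Ngp, the neutrophilic granule protein of the cathelicidin-related cystatin family, was at 27.9 and 49.8 TPM in WT early, against 16.9 and 26.1 in WT late. Its cKO libraries were at 40.2 and 50.4 TPM early and 21.2 and 29.4 late. The highest late value was above the lowest early one before scaling and just under it after, and the log2 change was -0.93 (SE 0.21, limma adjusted p = 0.00403). Camp, the precursor of the cathelicidin antimicrobial peptide, was at 16.5 and 20.2 TPM in the early WT libraries, against 5.13 and 9.95 in the late ones. In cKO it was at 23.5 and 27.0 TPM early, against 10.5 and 6.19 late. It fell by 1.49 on the log2 scale (SE 0.21, limma adjusted p = 0.000343), without overlap. Within a library, Ngp was 1.69 to 4.75 times Camp, a wider spread than that of the calprotectin pair, on as few as 10 reads for Camp.

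Ltf, which encodes the iron-binding lactoferrin, rose. It was at 162 and 93.3 TPM in early WT polysomes and 414 and 317 in late ones. In cKO it was at 233 and 89.3 TPM early and 585 and 370 late. Late libraries were all above early ones, by 1.50 on the log2 scale (SE 0.31, limma adjusted p = 0.00249), and the change was higher than that of 99.88% of genes tested. The ratio of Ltf to Lyz2 was 0.70 to 1.89 in early libraries and 3.98 to 6.53 in late ones. Ltf was also lower in lysate 2 than in lysate 1 of each genotype, in both fractions, whereas S100a8, S100a9, Ngp, Camp, Stfa1 and Stfa2 were higher in lysate 2 of both genotypes in the early fraction. Markers of sustentacular cells and glands were higher in lysate 1 in 8 of 8 in the early libraries of both genotypes, but in 3 of 8 in WT late and 4 of 8 in cKO late. Their sum in lysates 1 and 2 was 14450 and 9870 TPM early and 22070 and 18118 late in WT, and 13663 and 10928 early and 24538 and 22060 late in cKO. In the late libraries that order came from Bpifb9b, a secreted BPI-fold protein, without which the sums were 9049 and 9717 TPM in WT and 9633 and 10034 in cKO. The part of gland cells in the values of Ltf was not tested. In tissue RNA, fewer cells of a type and less RNA per cell cannot be told apart.

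Lyz2, the lysozyme of myeloid cells, changed least. It was at 85.7 and 77.6 TPM in early WT polysomes, against 63.3 and 72.2 in late ones. In cKO it was at 126 and 127 TPM early and 101 and 93.0 late. Within each genotype the early libraries were above the late ones, but the cKO late values exceeded the WT early ones. The log2 change was -0.44 (SE 0.074, limma adjusted p = 0.000828), on 265 to 632 reads per library.

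The stefins fell as far as calprotectin, on fewer reads. Stfa1 was at 8.39 and 20.4 TPM in the early WT libraries, against 4.53 and 3.84 in the late ones. In cKO it was at 8.55 and 29.4 TPM early, against 6.53 and 2.66 late. The 2 early libraries of a genotype differed by more than the lower of them differed from the late ones. The average log2 change was -1.68 (SE 0.42, limma adjusted p = 0.00688), and without WT lysate 2 the call was lost (-1.32, limma adjusted p = 0.0822). Stfa2 was at 9.26 and 12.8 TPM early in WT, against 3.35 and 3.25 late. In cKO it was at 10.9 and 15.6 TPM early, while the late libraries held 1.29 TPM, from 2 reads, and 0. A count of 0 in that library allows up to 2.63 TPM (3 reads, counting error only). The log2 change of Stfa2, -2.42 (SE 0.26, limma adjusted p = 7.50e-05), was the largest fall of the 8, and only 6 of the 16097 genes fell further on this scale.

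Each lysate taken by itself gave the same direction. S100a8 changed by -1.42 and -1.75 in the WT lysates and by -1.56 and -2.12 in the cKO lysates (log2, late minus early), and Ltf by 1.26 and 1.63 in WT and 1.24 and 1.87 in cKO. S100a9 ranged over the 4 lysates from -1.13 to -2.78, Ngp from -0.77 to -1.03, Camp from -1.07 to -2.12 and Lyz2 from -0.23 to -0.62. The stefins varied most, Stfa1 from -0.42 to -3.20 and Stfa2 from -1.30 to -4.14, and for both the cKO lysate 2 gave the largest fall. Within WT alone, 7 of 8 genes passed, 6 lower and Ltf higher (background 27.7% lower and 27.1% higher), and Stfa1 missed the threshold (-1.54, limma adjusted p = 0.0547). Without the WT early library whose tag goes against its title, S100a9 changed by -1.04 in WT, Stfa1 by -0.94 and Stfa2 by -1.34. On average over the genotypes, all 8 then kept their direction. Fewer of the 8 passed in WT without that library, either WT late library or either WT lysate, which left a group with 1 library. Within cKO, 8 of 8 passed (background 29.2% lower and 28.9% higher). The number was lower without cKO early replicate 2, either cKO late library or any of the 4 lysates. The shares of all genes called in these smaller fits are not given here, so the lost calls cannot be told apart from a loss common to all genes. Stfa1 was the weakest call in cKO (-1.81, SE 0.59, limma adjusted p = 0.0289), and with the lysate as a replicate block its adjusted p was 0.0514.

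Coding length went with the direction of the change. Over 10 bins of equal numbers of genes by longest coding sequence, the median log2 change was -1.12 in the shortest bin (111 to 555 nt, 1467 genes) and 0.37 in the bin that holds Ltf (1938 to 2442 nt). The 7 genes that fell have 267 to 516 coding nt and lie in the shortest bin, and Ltf has 2121. Compared with their own bin, Ngp and Camp lay inside its 10th to 90th percentile, -1.59 to -0.45. S100a9 and Stfa2 lay below that range. So did the estimates of S100a8 (-1.71, SE 0.14) and Stfa1 (-1.68, SE 0.42), but within their SE of its edge. Lyz2 (-0.44) lay just above it, and Ltf, at 1.50, above the range of its own bin (-0.30 to 0.93). A shorter annotated form of Stfa1 (291 nt) is in the same bin. Ltf also has a shorter annotated form, of 285 nt, a length that falls in the shortest bin. Which form the reads came from was not tested. Length within the bin also differed between genes, and the part of coding length in each change was not tested.

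**Figure D2:**
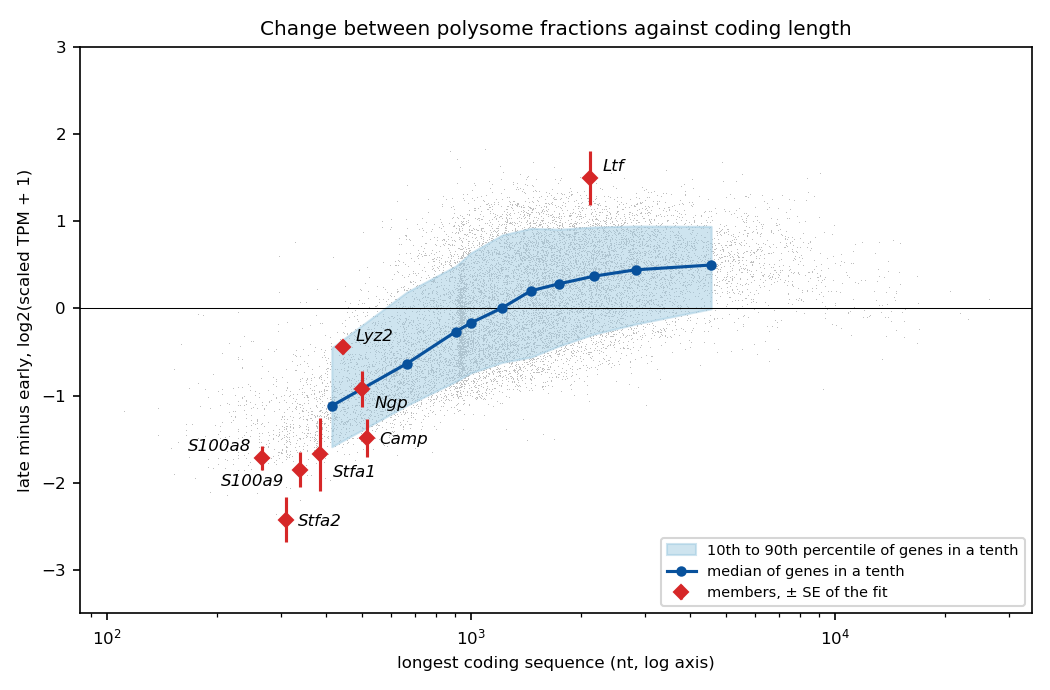
Late minus early change (vertical axis, log2 of scaled TPM + 1, mean of the genotypes) against longest coding sequence (horizontal log axis, nt); grey points are genes, the line joins the medians of 10 length bins, the band spans their 10th to 90th percentiles, and diamonds are the 8 genes with the SE of the fit. Ltf lies above the band at 2121 nt, and Stfa2 is the lowest of the 8 at 309 nt.

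Relatives by family fell with the calprotectin and stefin messages, and messages of other granule proteins went both ways. Of the other S100 genes on the list, 12 were tested, and 12 fell and 0 rose, with a median of -1.66 (all genes -0.011; 34.6% lower and 34.3% higher). S100pbp (-0.48), listed with them, encodes a binding partner of an S100 protein and was left out of these counts after its values were seen. S100a5, a calcium-binding protein of olfactory neurons, changed by -1.72 at a mean of 3663 TPM, S100a1 by -1.96 at 405 TPM, S100a6 by -1.75 at 361 TPM and S100a11 by -1.69 at 235 TPM. Of 6 other stefins tested, 5 fell, with a median of -1.75. Cstb, the ubiquitous stefin B, changed by -1.66 at 129 TPM, and the stefin A copies Gm5483, Stfa2l1, BC100530 and Stfa3 by -2.38 to -1.74. These 12 S100 genes have 237 to 480 coding nt and the 6 stefins 291 to 309. All thus lie in the shortest length bin, whose median was -1.12 and 10th percentile -1.59. The part of family beside coding length was not tested. Among 13 other granule protein genes, 5 rose, a share near that of all genes, and 2 fell, with a median of 0.41. Mmp9, the gelatinase of tertiary granules, rose by 0.88 at 191 TPM, and Hp, haptoglobin, by 0.58 at 12.0 TPM. Pglyrp1, a peptidoglycan recognition protein of granules, changed by -0.49 at 152 TPM, whereas Lcn2, a siderophore-binding protein of specific granules, did not pass (-0.21, limma adjusted p = 0.0664, 62.1 TPM).

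Of 9 neutrophil surface and signalling genes tested, 2 rose and 3 fell, with a median of -0.082, where 34.3% of all genes rose and 34.6% fell. Counts this small in this and the next lists are not set apart from those shares. The chemokine receptor gene Cxcr4 rose by 0.91 at 46.6 TPM, and Itgb2, the shared chain of the leukocyte integrins, by 0.79 at 11.6 TPM. Hdc, which makes histamine, changed by -0.70 at 55.1 TPM, and Itgam, the partner of Itgb2 on neutrophils, did not pass (0.17, limma adjusted p = 0.478) at 4.43 TPM. Ly6g is not analysed here. Of 13 macrophage markers, 6 rose and 2 fell (median 0.28). Csf1r, the receptor that macrophages need, rose by 0.91, and the scavenger receptor gene Cd68 did not pass (0.11). Pan-myeloid and leukocyte markers went both ways, with 2 of 10 higher and 5 lower (median -0.31). Lcp1, an actin-bundling protein of leukocytes, rose by 0.81, and Fcer1g, a short signalling chain of 276 coding nt, changed by -1.32.

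Loss of Mex3a went with no change in these genes that passed the threshold. In limma on the lysate means (2 WT against 2 cKO), Mex3a itself changed by -2.67 (SE 0.14, adjusted p = 0.0227), and 0 of the 8 genes passed. The same count, 0 of 8, came from cKO against WT in early polysomes, in late polysomes and from the interaction of genotype and fraction. Calls were rare among all genes, at 0.0435% in early, 0.0124% in late, 0.00621% on lysate means and 0.00621% for the interaction. At an unadjusted p under 0.05, Lyz2 was the 1 gene of the 8 in early, Lyz2 and Stfa2 were the 2 in late and the 2 on lysate means, and Stfa2 was the 1 in the interaction. Of all genes, 6.65%, 9.36%, 11.3% and 2.85% reached that level in early, in late, on lysate means and in the interaction. The voom fit on inferred reads called 0 in early, late and the interaction. In place of lysate means it used the summed early and late reads of each lysate, and there it called 1, Lyz2.

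Lyz2 came nearest to a genotype difference. Both cKO early libraries (126 and 127 TPM) were above both WT early ones (85.7 and 77.6), and both cKO late libraries (101 and 93.0) above both WT late ones (63.3 and 72.2). Of all genes, 6.57% were higher in cKO without overlap in both fractions. On lysate means Lyz2 was higher in cKO by 0.62 on the log2 scale (SE 0.064), a fold of 1.53, with an unadjusted p of 8.29e-05 and a limma adjusted p of 0.126, which missed the threshold. The difference was 0.68 in early (SE 0.11, limma adjusted p = 0.147) and 0.55 in late (SE 0.11, limma adjusted p = 0.265). Without WT lysate 2, which holds the library with the conflicting tag, it was 0.63 (limma adjusted p = 0.231).

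**Figure D3:**
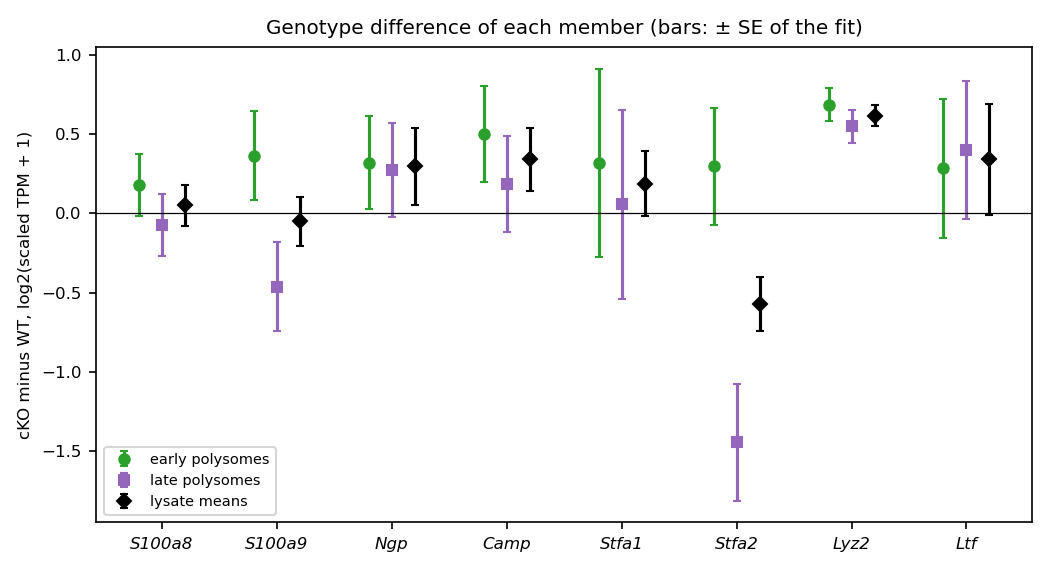
cKO minus WT differences (log2 of scaled TPM + 1) of the 8 genes, in early polysomes, in late polysomes and on lysate means; points are limma estimates and bars their SE. Lyz2 lies near 0.6 in each comparison with short bars, and Stfa2 lies at 0.30 in early and -1.44 in late.

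The other genes showed smaller or less even differences. Camp differed by 0.34 (SE 0.20), Ltf by 0.34 (SE 0.35), Ngp by 0.30 (SE 0.24) and Stfa1 by 0.19 (SE 0.20) on lysate means, with limma adjusted p between 0.556 and 0.756. S100a8 differed by 0.050 (SE 0.13) and S100a9 by -0.050 (SE 0.16), with the genotypes overlapping. Stfa2 was lower in cKO on lysate means by a log2 difference of -0.57 (SE 0.17, limma adjusted p = 0.377), and by voom on summed reads it was positive (0.17). By fraction it was 0.30 in early (limma adjusted p = 0.923) and -1.44 in late (SE 0.37, limma adjusted p = 0.363). Without cKO late replicate 2 the late value was -0.85, and without cKO late replicate 1 it was -2.04. The early value was 0.52 without the library with the conflicting tag. The late difference rested on 6 and 6 reads in WT against 2 and 0 in cKO. Per read of depth, that is a ratio of 0.232, with an exact 95% interval of 0.0252 to 1.04 that covers counting error only and not the spread between lysates.

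How far a gene fell between fractions was also compared between genotypes. S100a9 changed by -1.44 in WT (SE 0.28) and by -2.26 in cKO (SE 0.28), both past the limma threshold. The interaction was -0.83 (SE 0.40), with an unadjusted limma p of 0.0701, and was not past it. It was -0.43 without WT early replicate 1, -1.22 without the library with the conflicting tag, and -1.35 and -0.31 without cKO lysates 1 and 2. Stfa2 changed by -1.55 in WT (SE 0.37) and by -3.29 in cKO (SE 0.37), and its interaction of -1.74 (SE 0.52) had an unadjusted limma p of 0.00973 and an adjusted p of 1.00. The interaction was -1.15 without cKO late replicate 2, -0.90 without cKO lysate 2 and -1.96 without the library with the conflicting tag. The call of Stfa2 in WT was lost without that library (-1.34, limma adjusted p = 0.0617), without either WT lysate (limma adjusted p = 0.0652 and 0.177) and with a pseudocount of 0.1 (-1.80, limma adjusted p = 0.149). That of S100a9 in WT was lost without WT lysate 2 (-1.13, limma adjusted p = 0.0799). Read ratios of late to early Stfa2 were 0.253 in WT (12 over 45 reads, exact 95% interval 0.122 to 0.486) and 0.0472 in cKO (2 over 51 reads, 0.00557 to 0.180). Both intervals pool the reads of 2 lysates and cover counting error only, not the spread between lysates, so they do not test the genotypes against each other. The interaction was negative in 7 of the 8 genes, Ltf being the exception. This sign was not peculiar to them: it was negative in 51.1% of all genes, in 6 of 6 other stefins, 9 of 9 neutrophil surface and signalling genes, 9 of 12 other S100 genes and 7 of 9 B and plasma cell markers. It was positive in 10 of 13 other granule protein genes and 10 of 13 macrophage markers.

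Markers of other cells did not separate the genotypes past the threshold, with 0 called on lysate means in any of the 12 lists. Their directions are given because they moved beside Lyz2. Macrophage markers were higher in cKO in 12 of 13 (median 0.17), with sums of 254 to 285 TPM early and 328 to 353 late in WT, and 270 to 309 early and 386 to 409 late in cKO. Pan-myeloid and leukocyte markers were higher in 8 of 10 (median 0.16), with sums of 262 to 273 TPM in WT and 286 to 314 in cKO. Neutrophil surface and signalling genes were higher in 8 of 9 (median 0.23) and other granule protein genes in 10 of 13 (0.31). The same held for B and plasma cell markers in 8 of 9 (0.29) and erythroid markers in 5 of 5 (0.32), against a median of 0.0015 over all genes, of which 50.4% were higher. Pglyrp1 differed by 0.44 (limma adjusted p = 0.253). Stefins other than the 2 described went the other way, lower in cKO in 6 of 6 (median -0.38), but they were higher in 4 of 6 in early polysomes and in 0 of 6 in late. In at least 1 library Stfa3 and Gm5416 had 0 reads, and Stfa2l1, BC100530 and Gm5483 had 1. Cstb, with at least 84 reads per library, differed by -0.023. Other S100 genes were higher in 6 of 12. T and NK cell markers were higher in 3 of 4 and platelet markers in 2 of 3, while those of mature olfactory neurons were higher in 1 of 8 and of sustentacular cells and glands in 4 of 8. None of the list genes tabulated was at 0 in every library. The part of leukocyte content in the Lyz2 difference was not tested.

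**Figure D4:**
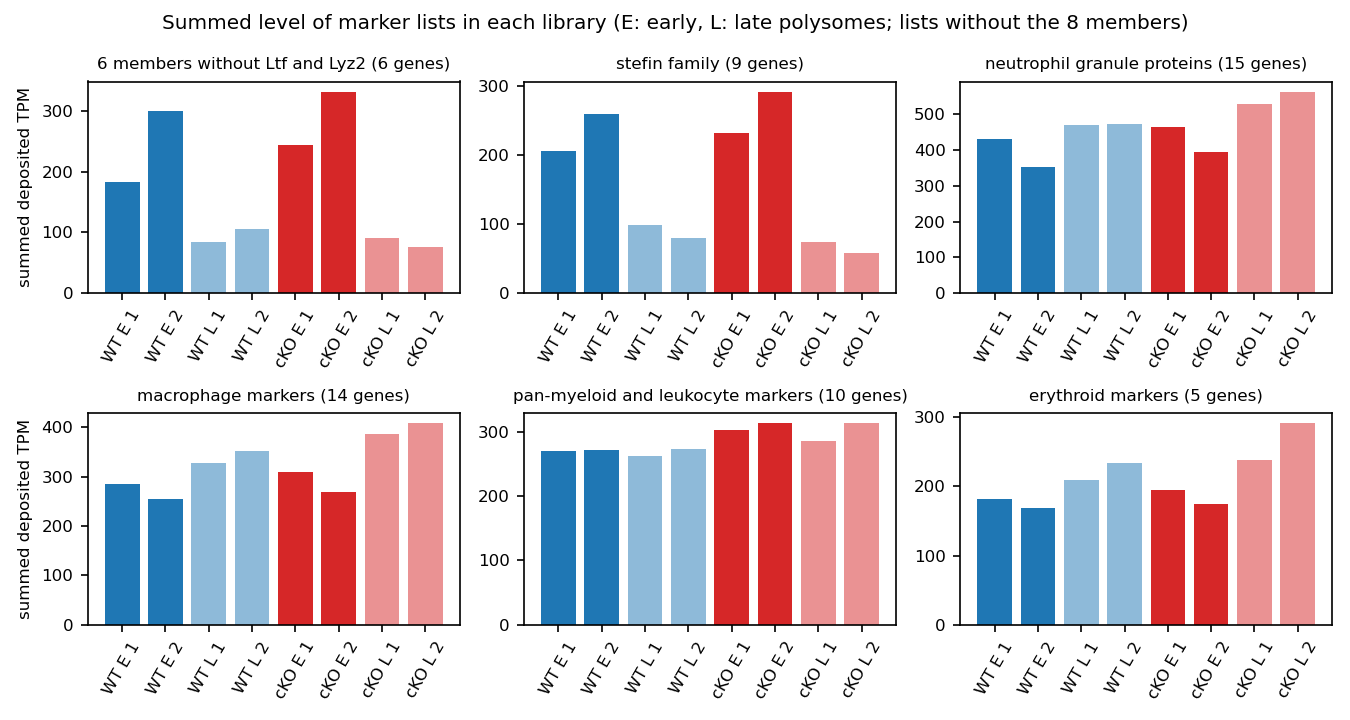
Summed deposited TPM (vertical axes from 0) of 6 of the genes and of 5 lists without any of the 8; each bar is 1 library, E for early and L for late polysomes, with the lysate number. Macrophage sums are 386 to 409 TPM in cKO late and 328 to 353 in WT late, and pan-myeloid sums are 286 to 314 in cKO and 262 to 273 in WT.

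The 6 genes other than Ltf and Lyz2 summed to 183 and 300 TPM early and 83.8 and 105 late in WT. In cKO the sums were 244 and 332 TPM early and 91.1 and 76.7 late. Lysate 2 was thus the higher of the early pair in both genotypes. After the mean of each fraction was taken out, the genes whose profile over the 8 libraries was most like the mean profile of all 8 were Stxbp6 (Pearson r 0.974), Tirap (0.961), Tmem5 (0.960), Xkr7 (0.957) and Cisd2 (0.957), out of 12808 genes searched. These coefficients describe 8 libraries that share 4 lysates, and none of the 5 genes was on a marker list.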

How the data were processed

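The authors deposited 1 table of TPM values, with 1 column per library and each column summing to 1000000. Per the labels' protocols, libraries came from a stranded low-input total RNA kit. The submitters' processing notes name FastQC, cutadapt, STAR and the mm10 genome. The counter and annotation are not given in the sources used here. From the TPM steps, whole reads were inferred for 19783 genes (100% within 0.001). In simulated data, 99.6% of 19534 genes came back exactly.

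Libraries were put on 1 scale by median ratios (factors 0.94 to 1.07). The test, on log2(scaled TPM + 1), used limma 3.58.1 (R 4.3.3) in 1 fit of the 4 groups, with a mean-variance trend, two-sided p-values and Benjamini-Hochberg adjustment over 16097 genes at 0.05. This scale understates the change of low genes. Genotype was also fitted on lysate means. In simulated tables with 3-fold changes, 195 of 200 changed genes were called for late against early (mean of genotypes, 16061 genes). For lysate means, 196 of 199 were called (16041 genes). The simulated genotype change was the same in both fractions, so it held no interaction, and 0 of 199 were called for it. The power of the interaction was thus not tested. Replicates were simulated with a fixed spread for all genes and no lysate effect, so these rates do not measure sensitivity in these data. The early and late library of a lysate carry its name and so are paired, and their deviations correlated at 0.0863 in WT and 0.0502 in cKO. Positions and sequences came from GENCODE M21 (GRCm38), which matched 8 of 8 symbols.

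Named genes were the 8, Mex3a, up to 4 of the most abundant genes of each list, stefin copies, Lyz1 and the 5 genes of most similar profile. The members and lists were chosen with earlier results of these data known. Alternatives were other pseudocounts, filters and scalings, no trend, voom, a replicate block and leaving out libraries or lysates.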

Additional observations from a re-analysis of the deposited data

How the results depend on the processing

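For late against early on average, 167 of 168 alternative values of single genes kept direction and call, the exception being Stfa1 without WT lysate 2. The count past the threshold was 7 to 8 with libraries or lysates left out. In WT it was 0 to 8 and in cKO 3 to 8, against 7 and 8. Stfa1 in cKO also lost its call without the filter, with the lysate block, with the 4 cKO libraries alone and under voom (limma adjusted p 0.0594, 0.0514, 0.0542 and 0.0612). In WT, Stfa2 lost its call with a pseudocount of 0.1 (limma adjusted p 0.149) and without WT early replicate 2 or either WT lysate. Stfa1 gained a call in WT in 7 of 22 alternatives. Among them were a mean TPM of at least 5 and the 4 WT libraries alone (limma adjusted p 0.0448 and 0.0171). The block changed no other call between fractions.

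For genotype, the shares of all genes called with a replicate block or with voom are not given here. A replicate block by number, which no label says pairs the lysates, raised the count on lysate means from 0 to 1. Voom on the summed early and late reads of each lysate called the same 1 gene. That gene was Lyz2 (adjusted p 0.0247 with the block and 0.0266 with voom, range over all alternatives 0.0247 to 0.421). Same-numbered WT and cKO libraries deviated together at 0.332 in early and 0.143 in late. Under voom, S100a9 (0.28) and Stfa2 (0.17) turned positive. Summed reads are another quantity than means of log values, since the fraction with more reads weighs more. By limma, S100a9 differed by 0.36 in early polysomes and by -0.46 in late ones, and Stfa2 by 0.30 and -1.44. Early Stfa2 reads outnumbered late ones by 45 to 12 for WT and by 51 to 2 for cKO. The part of the summing in the change of sign was not tested. With lysates left out, values crossed 0 for S100a8 (-0.14 to 0.24), S100a9 (-0.29 to 0.19), Ngp (-0.056 to 0.65), Stfa1 (-0.064 to 0.44) and Ltf (-0.17 to 0.86). The pseudocount moved Stfa2 most: with 0.1, it was -3.51 for late against early and -3.11 for cKO against WT in late. Without scaling, the median of all genes moved to 0.087 for late against early. Stfa1, Stfa2 and Camp are limited by depth, with 10 or fewer reads in at least 1 library each.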
